A study of Mus musculus with 54 samples.

Results

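The 34 genes described here are the mouse genes of homologous recombination, the Fanconi anaemia pathway and the DNA damage kinases, chosen by symbol from a fixed list and matched to NCBI gene numbers. All 34 were found among the 19653 genes of the series, and each was listed in all 27 deposited tables with a group mean above the floor of 10 normalized counts used below. Homologous recombination repairs a broken chromosome by copying the intact sister, so it works mainly in cells that have replicated their DNA. The kinases Atm and Atr sense the lesion, nucleases and helicases resect the ends, the Brca proteins prepare the single strand for invasion of the sister, and Fanconi proteins unhook crosslinks that block the fork. Muscle progenitors leave the cell cycle when they differentiate, and many, but not all, of the genes of these steps are known to be expressed mostly in cycling cells.

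RNA was sequenced from H2K myogenic progenitors at 0, 24 and 48 h after the switch to differentiation medium (days 0, 1 and 2). These mouse muscle precursor cells carry a conditional SV40 large T antigen and are grown with γ-interferon. Per the methods, the switch also raised the temperature, and no γ-interferon is listed for the differentiation medium. Differentiation cannot be told apart here from these changes of culture or from a change in the T antigen. The 6 lines were wildtype (WT), emerin-null (EMD-/y) and EMD-/y cells transduced by lentivirus with wildtype emerin (+EMD, labelled EMD) or with emerin carrying S54F, the deletion labelled Del9599 (del95-99 here) or Q133H, changes that cause Emery-Dreifuss muscular dystrophy. The WT line has emerin and no virus, and the other 5 lines share the emerin-null background. The 54 samples fall into 18 groups with 3 labelled replicates each. The labels and methods give 3 technical replicates for each of 2 biological replicates, and they do not say to which biological replicate a labelled one belongs. Per the labels and methods, the mutant lines were kept in puromycin and plated more densely than WT and EMD-/y. The +EMD line was selected in puromycin too, at a lower dose than the mutant lines, and its plating density is not said. These differences cannot be told apart from the emerin expressed. The labels do not say whether a transduced line is 1 clone.

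The 27 tables hold 15 comparisons of a line with WT on the same day and 12 comparisons of consecutive days of a line. In each, a gene has 1 mean for either group, made by the authors from normalized counts, and the means of a group sum to between 16.7 M and 21.1 M. No value per sample is in the tables, so the spread between replicates is unknown, no test was run, and the values below describe these groups of libraries. A member is counted as past 2-fold when the ratio of both means in a table is at least 2 and the larger mean is at least 10. The counts of members stand beside the percentage of all genes above the floor that meet the same rule in the same table, or, for counts over several lines, in all of their tables. An interval given with a fold is an exact 95% (Clopper-Pearson) interval that covers counting error only. Predicted genes without an NCBI number were past 2-fold in either direction in 13.2% to 56.8% of cases depending on the table, and other genes in 6.43% to 32.7%. Levels are given as CPM, normalized counts scaled to a summed mean of 1000000 for the group. Emd itself was at 105, 95.1 and 54.8 CPM in WT at days 0, 1 and 2, and between 0.02 and 0.13 in the other 15 groups, +EMD included, so that this gene checks the null background and not the transgenes. The summed level of 12 muscle differentiation markers was 3949.6 CPM in WT at day 0 and 46015 at day 2. Adipocyte, endothelial, macrophage and Schwann cell markers summed to at most 1.95 CPM in any group, whereas 4 fibroblast markers, chiefly Col3a1, summed to between 430.1 and 1338 CPM.

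Promoter windows are shown first because the levels of most, though not all, members moved together, and a shared cause was not tested. RefSeq windows (GRCm38.p6, 250 bases before to 50 after a start, the build to which the authors mapped) were given for 26 of the 34 members, with 29 windows in all. The letters TTTGGCGC, TTTCCCGC, TTTGCCGC or TTTCGCGC, which are forms of the E2F site of cell cycle promoters, were searched on both strands. They were in 6 of the 29 windows (20.7%), those of Chek2, Topbp1, Bard1, Brca2 and both windows of Rad51c, and in 2.26% of all 32851 windows. The CHR letters TTTGAA or TTCGAA were in 17.2% of the members' windows and 19.2% of all windows, and CCAAT was in 55.2% and 37.4%. Brca2 (chr5:150522371-150522670, plus strand), Bard1 (chr1:71102923-71103222, minus strand) and Topbp1 (chr9:103305077-103305376, plus strand) are printed as windows with a match, in capitals, and Rad52 (chr6:119902448-119902747, plus strand) as a member without one, whose level took the opposite course. The printed windows are examples, and having a match did not separate members that were lower from the rest. Chek1, Brca1, Rad51ap1, Rad54l, Fanci, Brip1, Eme1 and Polq, with log2 ratios from -3.37 to -2.02 between day 1 and day 2 in WT, had none in their windows, and Chek2, with a match, was higher at day 1 than at day 0 in all 6 lines. A match describes these letters and not a bound site.
Brca2: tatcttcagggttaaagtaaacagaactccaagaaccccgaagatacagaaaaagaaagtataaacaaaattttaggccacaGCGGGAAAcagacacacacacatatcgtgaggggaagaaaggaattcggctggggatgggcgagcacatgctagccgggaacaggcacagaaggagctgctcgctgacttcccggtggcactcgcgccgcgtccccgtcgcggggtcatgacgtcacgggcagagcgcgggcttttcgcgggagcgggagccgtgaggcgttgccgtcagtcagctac
Bard1: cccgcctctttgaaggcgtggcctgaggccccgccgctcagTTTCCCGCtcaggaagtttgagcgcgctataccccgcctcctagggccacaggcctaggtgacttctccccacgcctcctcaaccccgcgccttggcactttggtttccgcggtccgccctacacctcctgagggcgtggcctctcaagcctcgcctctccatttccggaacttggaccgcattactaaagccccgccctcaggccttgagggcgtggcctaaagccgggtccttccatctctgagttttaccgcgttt
Topbp1: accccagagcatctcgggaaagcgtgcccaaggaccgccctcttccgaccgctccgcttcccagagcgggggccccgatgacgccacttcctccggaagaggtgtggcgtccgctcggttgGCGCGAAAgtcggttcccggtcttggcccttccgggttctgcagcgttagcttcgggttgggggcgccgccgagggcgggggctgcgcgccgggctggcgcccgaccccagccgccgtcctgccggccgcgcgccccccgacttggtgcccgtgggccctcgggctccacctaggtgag
Rad52: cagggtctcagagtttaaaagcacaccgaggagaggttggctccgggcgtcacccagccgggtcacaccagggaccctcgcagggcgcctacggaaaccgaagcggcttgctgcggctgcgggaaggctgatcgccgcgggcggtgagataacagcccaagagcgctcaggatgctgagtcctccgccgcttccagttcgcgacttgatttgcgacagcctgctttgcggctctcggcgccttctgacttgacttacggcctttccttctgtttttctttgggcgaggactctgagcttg

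At day 0, before differentiation, the members differed widely in level and little between lines. In CPM per kilobase of gene length, the highest member in WT was Topbp1, the scaffold that activates Atr, at 42.4. Nbn and Rad50, parts of the complex that first binds a broken end, followed at 17.9 and 15.3. The lowest members were the recombination gene Rad51b at 1.49, the theta-type polymerase gene Polq at 2.07 and Palb2, which bridges Brca1 and Brca2, at 2.29. Brca1 stood at 9.61 and Brca2 at 4.19 on the same scale.

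From day 0 to day 1, WT and EMD-/y had lower levels of most members, and the lines del95-99, Q133H and +EMD did not. In WT, 8 of 34 members were past 2-fold lower at day 1, against 10.6% of all genes, and the members' median log2 ratio was -0.56. In EMD-/y, 5 members were past 2-fold lower, against 9.67% of all genes, with a median of -0.46. No member was past 2-fold lower in S54F (7.49% of all genes), del95-99 (6.96%), Q133H (6.6%) or +EMD (7.17%). The members' medians were -0.26, 0.18, 0.21 and 0.02 in these 4 lines, and 22 of 34 members had a ratio above 1 in del95-99 and in Q133H. The median of all genes lay between -0.02 and 0.02 in every table.

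The 8 members past 2-fold lower in WT at day 1 were Brca2, Fanca, Chek1, Exo1, Bard1, Rad54b, Fancd2 and Palb2. Brca2, which acts downstream of Brca1 and Palb2, had a WT mean of 826 at day 0 and 262 at day 1, a level 3.16-fold lower (interval 2.91 to 3.42). Its log2 ratio was -1.33 in EMD-/y, -0.94 in S54F, -0.89 in Q133H and -0.50 in both del95-99 and +EMD. Chek1, the kinase that Atr activates, was 2.57-fold lower in WT at day 1 (interval 2.33 to 2.83), with log2 ratios of -1.32 in EMD-/y, -0.12 in del95-99 and -0.01 in Q133H. The direction of Brca2 was thus shared by all 6 lines, whereas Exo1, the nuclease of long-range resection, had a log2 ratio of -1.34 in WT and 0.19 in del95-99. Exo1 had the largest difference from the WT log2 ratio in del95-99 (1.53) and in +EMD (1.40), and Brip1, the Brca1-bound helicase, had it in Q133H (1.48).

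A few members were higher at day 1 in all 6 lines. Rad51d, which forms a complex with Xrcc2, Rad51b and Rad51c, had log2 ratios from 0.70 in S54F to 1.08 in EMD-/y. It was past 2-fold higher in EMD-/y (12.2% of all genes) and +EMD (10.7%). Rad52, an annealing protein that binds single strands, lay between 0.42 and 1.03 and was past 2-fold in EMD-/y. Mus81, the junction nuclease, lay between 0.22 and 0.77, Chek2, the kinase that Atm activates, between 0.24 and 0.96, and the Fanconi helicase Fancm between 0.23 and 0.48. These 5 of the 34 members had a ratio above 1 in every line, a smaller share than the 22.9% of all genes. Atr was nearly level in WT (0.08) and lower in the other 5 lines, from -0.40 in EMD-/y to -0.91 in +EMD. Xrcc3, another recombination gene, was likewise level in WT (0.04) and at -0.84 in del95-99.

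**Figure D1:**
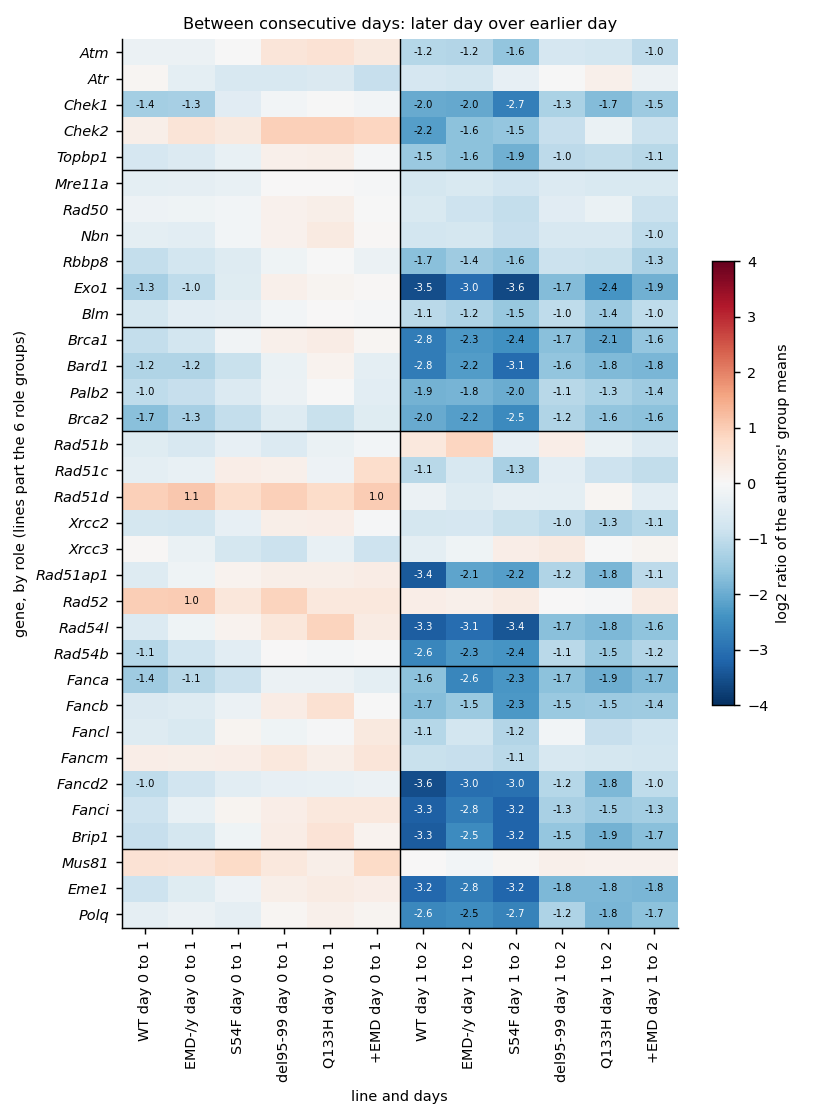
Log2 ratios of the authors' group means for the 34 members (rows, grouped by role) between consecutive days in the 6 lines (columns, later day over earlier day). Ratios of 2-fold or more are printed; 17 members are past 2-fold lower from day 1 to day 2 in all 6 lines, and from day 0 to day 1 the members past 2-fold lower are in the WT and EMD-/y columns.

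From day 1 to day 2 most members were lower in every line. In WT, 23 of 34 were past 2-fold lower, against 12.2% of all genes. EMD-/y had 21 (11.4%), S54F 24 (11.4%), del95-99 19 (5.49%), Q133H 18 (4.54%) and +EMD 22 (9.85%). No member was past 2-fold higher in WT (8.14% of all genes), EMD-/y (7.81%), S54F (9.54%), del95-99 (9.17%), Q133H (6.55%) or +EMD (11.2%). The members' median log2 ratio was -1.65 in WT, -1.55 in EMD-/y and -1.74 in S54F, and -1.03, -1.28 and -1.08 in del95-99, Q133H and +EMD. In total, 17 members were past 2-fold lower in all 6 lines (2.24% of all genes above the floor in the 6 tables), and 8 were not past it in any (81.9%).

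The largest ratios were those of genes for resection, strand invasion and crosslink repair. The Exo1 mean in WT was 216 at day 1 and 18.5 at day 2, 11.7-fold lower (interval 8.92 to 15.8). Fancd2, the Fanconi protein that is ubiquitinated at a crosslink, was 11.7-fold lower (interval 9.11 to 15.5), with means of 248 and 21.1. Its partner Fanci was 9.56-fold lower (interval 7.80 to 11.9). Rad51ap1, which promotes strand pairing, was 10.4-fold lower (interval 8.01 to 13.6), Brip1 10.01-fold and the motor Rad54l 9.91-fold. Eme1, the partner of Mus81, was 8.90-fold lower (interval 6.47 to 12.3), whereas Mus81 had a log2 ratio of 0.02. Among the mediators, the log2 ratios in WT were -2.81 for Brca1, -2.80 for its partner Bard1, -2.01 for Brca2 and -1.88 for Palb2.

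These genes were lower in del95-99 too, with smaller ratios. Exo1 was 3.34-fold lower in del95-99 (interval 3.08 to 3.62), and Fancd2 2.23-fold (interval 2.02 to 2.46). In +EMD, the log2 ratio of Fancd2 was -1.03, against -3.55 in WT, the largest difference among the members in that line (2.52) as in del95-99 (2.40). In Q133H the largest difference was that of Chek2 (1.94), with means of 593 at day 1 and 497 at day 2. Chek2 was 4.57-fold lower in WT (interval 3.89 to 5.38) and 1.19-fold lower in Q133H (interval 1.11 to 1.28). In EMD-/y and S54F the member with the largest difference was Rad51ap1 (1.27 and 1.19), with log2 ratios of -2.10 and -2.19. The log2 ratio of a line lay above that of WT in 29 members in del95-99 and in Q133H, 28 in +EMD, 22 in EMD-/y and 12 in S54F. The same share was not counted over all genes. Of all genes, fewer were past 2-fold lower in del95-99 (5.49%) and Q133H (4.54%) than in WT (12.2%).

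Across the 34 members, the log2 ratios of a line were set beside those of WT for the same step, which share no library. From day 1 to day 2, Pearson's r was 0.95 in EMD-/y, 0.93 in S54F, 0.84 in both del95-99 and Q133H, and 0.77 in +EMD. From day 0 to day 1, it was 0.95, 0.74, 0.51, 0.39 and 0.51 in the same order. The genes are not independent replicates, and each r is a description.

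The other members were past 2-fold lower in some lines or in none. The end-binding genes Mre11a, Rad50 and Nbn had log2 ratios between -1.003 and -0.25 from day 1 to day 2, with Nbn in +EMD just past 2-fold lower. Rad51b, Rad51d, Xrcc3, Rad52, Mus81 and Atr were not past 2-fold in any line, and Rad51b was 1.82-fold higher in EMD-/y (interval 1.40 to 2.38), from a mean of 29.8. Rad52 lay between -0.05 and 0.32, and Mus81 between -0.10 and 0.19. Rad51c and Xrcc2 were past 2-fold lower in some lines, Rad51c in WT and S54F and Xrcc2 in del95-99, Q133H and +EMD. Fancl, the Fanconi ubiquitin ligase, was past 2-fold lower in WT and S54F, and Fancm in S54F.

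The level left at day 2 differed between the lines in 2 sets. As a percentage of the same line's day 0 level, in CPM, the members' median at day 2 was 18.3% in WT, 19.6% in EMD-/y and 19.1% in S54F. It was 46.2% in del95-99, 48.4% in Q133H and 40.2% in +EMD. The number of members under 25% was 20, 18 and 19 in the first 3 lines (10.7%, 9.79% and 10.0% of all genes) and 1, 4 and 5 in the others (4.05%, 3.16% and 5.71%). Exo1 was at 2.75% of its day 0 level in WT, 4.64% in EMD-/y, 4.65% in S54F, 31.2% in del95-99, 19.2% in Q133H and 24.5% in +EMD. Brca1 was at 6.11%, 9.93%, 13.5%, 33.1%, 27.2% and 31.5% in the same order. Chek2 in Q133H was above its day 0 level, at 158%, and was at 21.99% in WT. Rad52 was above its day 0 level in all 6 lines, from 127% in Q133H to 206% in WT, as were Rad51d and Mus81. How many of all genes were above their day 0 level was not counted.

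**Figure D2:**
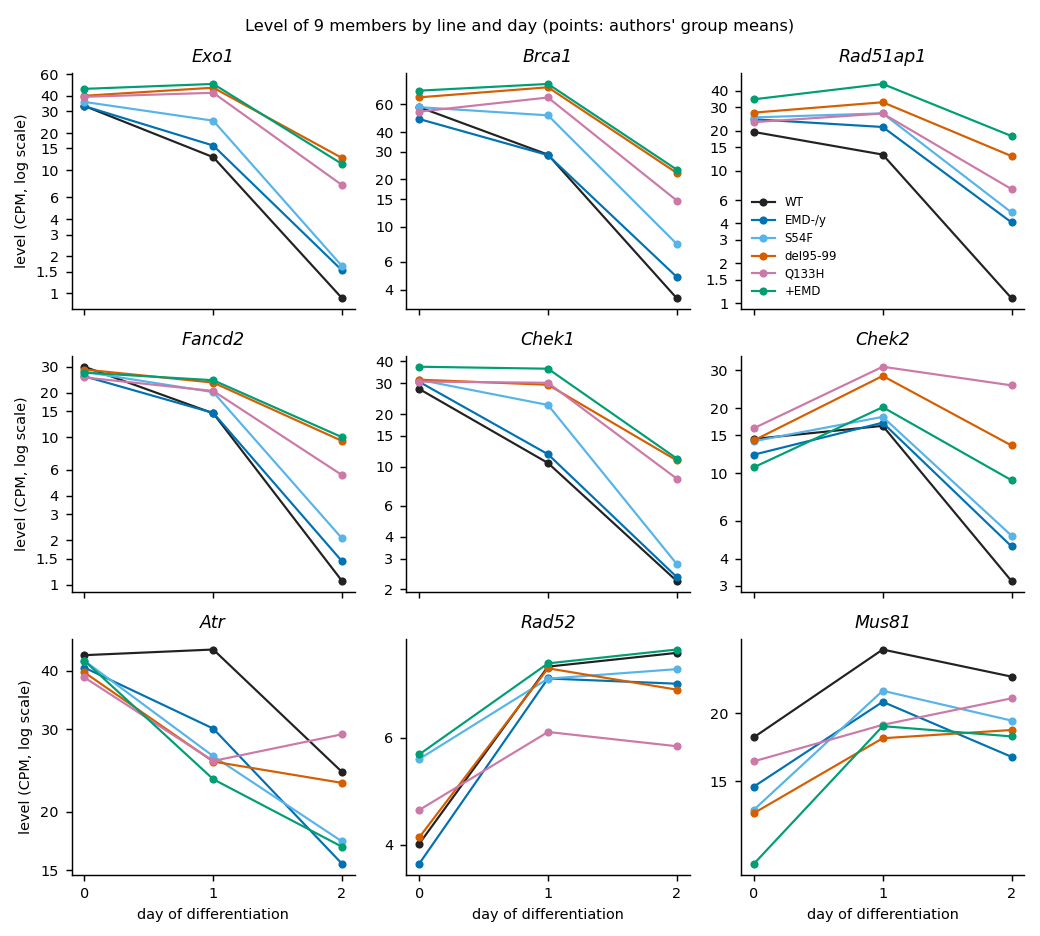
Level of 9 members (authors' group means in CPM, log axis with its own range in each panel) at days 0, 1 and 2 in the 6 lines. The lines del95-99, Q133H and +EMD lie above the other 3 at day 2 for Exo1, Brca1, Rad51ap1, Fancd2, Chek1 and Chek2, and WT is the highest of the 6 at each day for Mus81.

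In CPM at days 0, 1 and 2, Exo1 was 33.2, 12.7 and 0.912 in WT, 33.1, 15.8 and 1.54 in EMD-/y and 35.8, 25.2 and 1.66 in S54F. It was 40.2, 46.7 and 12.5 in del95-99, 39.4, 42.4 and 7.56 in Q133H and 45.7, 50.1 and 11.2 in +EMD. The 6 lines thus lay between 33.1 and 45.7 at day 0 and parted at day 1, when S54F stood between both sets. Rad51ap1 was 19.5, 13.2 and 1.09 in WT, 24.3, 21.3 and 4.07 in EMD-/y and 25.1, 26.96 and 4.84 in S54F. In del95-99 it was 27.3, 32.7 and 12.9, in Q133H 23.1, 26.9 and 7.25 and in +EMD 34.4, 44.9 and 18.2. WT was the lowest line for Rad51ap1 on each day. Chek2 was 14.4, 16.5 and 3.16 in WT, 12.2, 17.1 and 4.57 in EMD-/y, 14.04, 18.2 and 5.13 in S54F, 14.2, 28.2 and 13.4 in del95-99, 16.1, 31.1 and 25.5 in Q133H and 10.6, 20.2 and 9.26 in +EMD. Atr was 43.2, 44.4 and 24.3 in WT, 40.6, 30.1 and 15.5 in EMD-/y, 42.00, 26.3 and 17.3 in S54F, 39.7, 25.6 and 23.1 in del95-99, 38.7, 25.7 and 29.3 in Q133H and 41.99, 23.5 and 16.8 in +EMD. Atr alone among the damage kinases was higher in WT than in each other line at day 1. A group's level on this scale differed between its tables by at most 1.13-fold for any member.

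Each line was next set beside WT on the same day. The 5 comparisons of a day share the WT libraries. At day 0, the members were close to WT in all lines. No member was past 2-fold higher in EMD-/y (5.18% of all genes), S54F (6.0%), del95-99 (5.82%) or Q133H (6.45%), and 1 was in +EMD (6.3%). This was Polq, the polymerase of theta-mediated end joining, with means of 326 in WT and 699 in +EMD (2.14-fold, interval 1.99 to 2.31). The members' medians lay between -0.10 in EMD-/y and 0.19 in +EMD. Fanci was below WT in all 5 lines, from -0.62 in Q133H to -0.32 in del95-99.

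At day 1, no member was past 2-fold higher in EMD-/y (4.79% of all genes) and 1 was in S54F (5.84%), Chek1 (2.09-fold, interval 1.89 to 2.31). The number was 11 in del95-99 (9.05%), 5 in Q133H (9.7%) and 15 in +EMD (9.2%). The members' medians were -0.01, 0.34, 0.77, 0.67 and 0.88 in the order of lines just given. With means taken as CPM, the Q133H count was 13, since 8 more members lay just under 2-fold. The 4 members past 2-fold in all of del95-99, Q133H and +EMD, against 3.72% of all genes, were Chek1, Exo1, Brca1 and Eme1. Exo1 was 3.33-fold higher in del95-99 (interval 3.07 to 3.62) and 3.69-fold in +EMD (interval 3.40 to 4.01). Atr lay below WT in all 5 lines, at -0.55 in EMD-/y, -0.78 in S54F, -0.93 in del95-99, -0.90 in Q133H and -0.997 in +EMD. In +EMD its means were 843 in WT and 422 in the line (1.996-fold lower, interval 1.87 to 2.14). Xrcc3 was also below WT in all 5 lines, from -0.62 in S54F to -0.15 in +EMD.

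At day 2, the members were far above WT in the lines del95-99, Q133H and +EMD. In del95-99, 22 of 34 members were past 2-fold higher, against 13.4% of all genes. In Q133H it was 19 (18.2%) and in +EMD 21 (10.9%). The members' medians were 1.32, 1.21 and 1.24. In EMD-/y, 1 member was past 2-fold higher (5.02% of all genes) and in S54F 2 were (6.1%), with medians of 0.12 and 0.07. A total of 18 members were past 2-fold higher in each of del95-99, Q133H and +EMD (5.52% of all genes), and 29 had a ratio above 1 in all 3 (29.9%). The 3 comparisons share the WT libraries. Fanca in EMD-/y (2.96% of all genes) was the 1 member past 2-fold lower than WT at day 2, and there was none in S54F (5.03%), del95-99 (9.1%), Q133H (15.6%) or +EMD (7.81%).

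Rad51ap1 had the highest ratio of all at day 2 in +EMD, with means of 20.5 in WT and 331 in the line (16.2-fold, interval 12.6 to 21.5). It was 10.4-fold higher in del95-99 (interval 8.04 to 13.6) and 5.53-fold in Q133H (interval 4.23 to 7.28). It was also the member past 2-fold in EMD-/y, at 3.69-fold (interval 2.78 to 5.03), and it was 4.48-fold higher in S54F (interval 3.37 to 5.99). Its WT mean at day 2 was about 20 normalized counts, so the interval is wide. The motors Rad54l and Rad54b stood at 2.68 and 2.62 in del95-99, 2.18 and 2.18 in Q133H, and 2.78 and 2.95 in +EMD. Rad54b shares 35.9% of its exonic bases with other annotated genes, chiefly Fsbp on the same strand, so its counts may hold reads of that gene. Opposite-strand neighbours cover 16.0% of the exonic bases of Fanci (Polg), 15.4% of Rad54l (Lrrc41), 13.7% of Fancl (Vrk2), 10.7% of Eme1 and 10.5% of Fanca (Zfp276), and without strand in the counting such reads cannot be told apart.

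Among resection genes, Exo1 was 11.99-fold higher in del95-99 (interval 9.06 to 16.03), 6.44-fold in Q133H (interval 4.83 to 8.62) and 11.97-fold in +EMD (interval 9.01 to 16.3). Rbbp8, which starts resection, had log2 ratios of 1.75, 1.90 and 1.46 in del95-99, Q133H and +EMD. The helicase Blm was at 0.73, 0.15 and 1.06. Mre11a, Rad50 and Nbn, in contrast, lay between 0.07 and 0.76 in these 3 lines.

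All 4 mediators were past 2-fold higher in del95-99, Q133H and +EMD. Brca1 was 5.49-fold higher in del95-99 (interval 4.74 to 6.39), 3.31-fold in Q133H (interval 2.84 to 3.87) and 6.35-fold in +EMD (interval 5.46 to 7.40). In S54F it was 2.27-fold higher, with means of 64.7 and 147 and an interval of 1.92 to 2.71. Brca2 had log2 ratios of 2.18, 1.29 and 1.90, Bard1 of 2.13, 1.69 and 2.05, and Palb2 of 1.58, 1.55 and 1.47 in del95-99, Q133H and +EMD.

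In the Fanconi group, Fancd2 was 7.71-fold higher in del95-99 (interval 5.94 to 10.2), 4.19-fold in Q133H (interval 3.21 to 5.61) and 9.09-fold in +EMD (interval 6.96 to 12.1). The other members downstream of the core, Fanci and Brip1, were also past 2-fold higher, with log2 ratios between 2.23 and 2.95 in the same 3 lines. Fanca, a core subunit, was past 2-fold higher in del95-99 and +EMD, at 0.13 in Q133H, and past 2-fold lower in EMD-/y, with means of 61.3 in WT and 30.1 in the line (interval of the fold 1.58 to 2.66). Fanca was thus past 2-fold in both directions against WT on the same day, depending on the line. Fancb, another core subunit, lay between 1.11 and 1.16 in the 3 lines. Fancl was at 1.03, 0.46 and 0.99, and Fancm at 0.42, 0.26 and 0.44.

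Among the kinases, Chek1 stood at 2.09, 1.64 and 2.27 in del95-99, Q133H and +EMD. Among these lines Chek2 had its highest ratio in Q133H, with means of 65.8 in WT and 435 in the line (6.61-fold, interval 5.70 to 7.73), and was 3.73-fold higher in del95-99 and 2.84-fold in +EMD. In Q133H the ratios of Chek2 and Exo1 were close, with overlapping intervals, and in the other 2 of these lines Chek2 was below the mediators Brca1, Bard1 and Brca2. Topbp1 was at 1.36, 1.38 and 1.29, and Atm at 1.18, 1.15 and 0.72. Atr was at -0.26, 0.01 and -0.57.

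The joining and junction genes parted within the group. Eme1 was between 5.90-fold and 6.06-fold higher in the 3 lines, and Polq had log2 ratios of 2.28, 1.27 and 2.47. Mus81, whose product forms 1 nuclease with Eme1, was below WT in all 15 comparisons, with log2 ratios between -0.76 (+EMD at day 0) and -0.18 (Q133H at day 0) and none past 2-fold. At day 2 it was at -0.43, -0.23, -0.51, -0.39 and -0.41 in EMD-/y, S54F, del95-99, Q133H and +EMD. Rad51b, Rad51d, Xrcc2, Xrcc3 and Rad52 were not past 2-fold in any comparison with WT, and at day 2 Rad52 was below WT in all 5 lines, from -0.77 in Q133H to -0.02 in +EMD. Rad51c was past 2-fold higher in del95-99 and, at 2.004-fold, in +EMD.

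**Figure D3:**
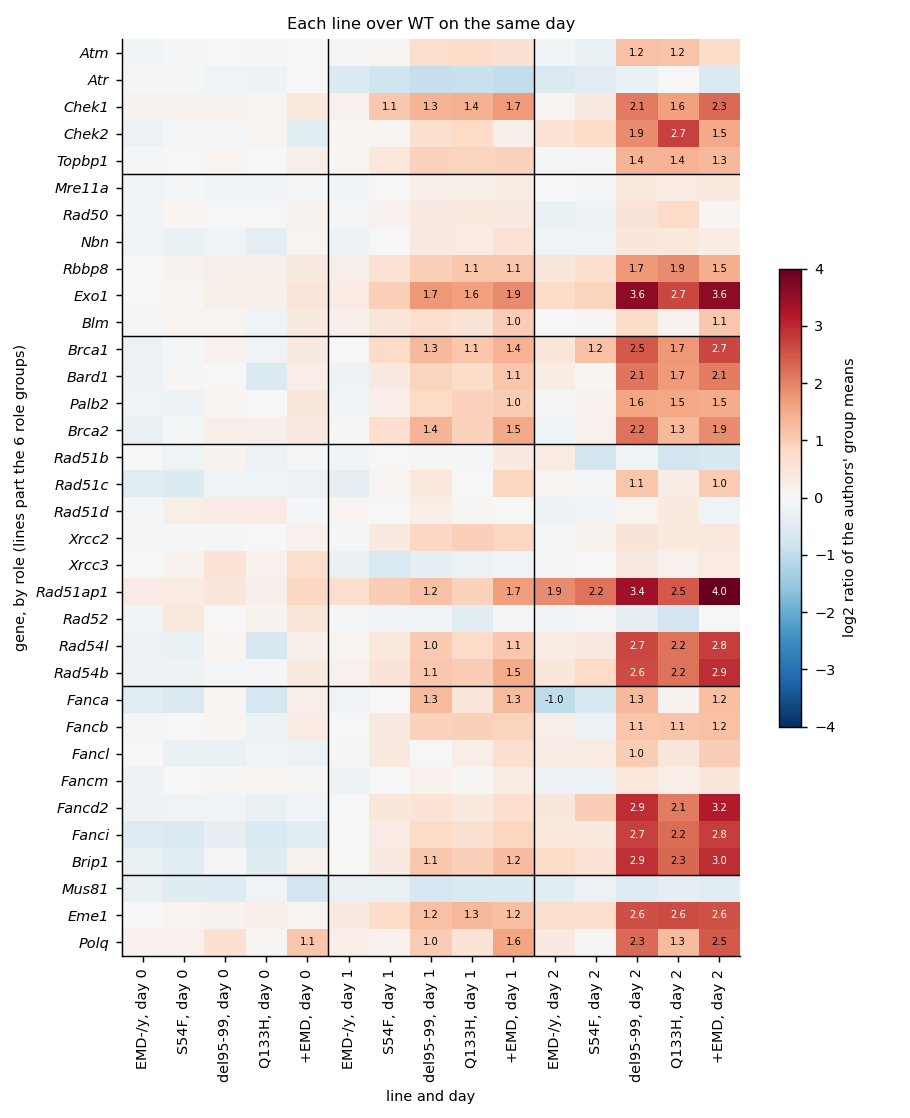
Log2 ratios of the authors' group means for the 34 members (rows, grouped by role) in each of the 5 lines over WT at days 0, 1 and 2 (columns). Ratios of 2-fold or more are printed; at day 2 they are in 22 members in del95-99, 19 in Q133H and 21 in +EMD, and in 2 each in EMD-/y, where 1 of these, Fanca, is lower than WT, and S54F.

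**Figure D4:**
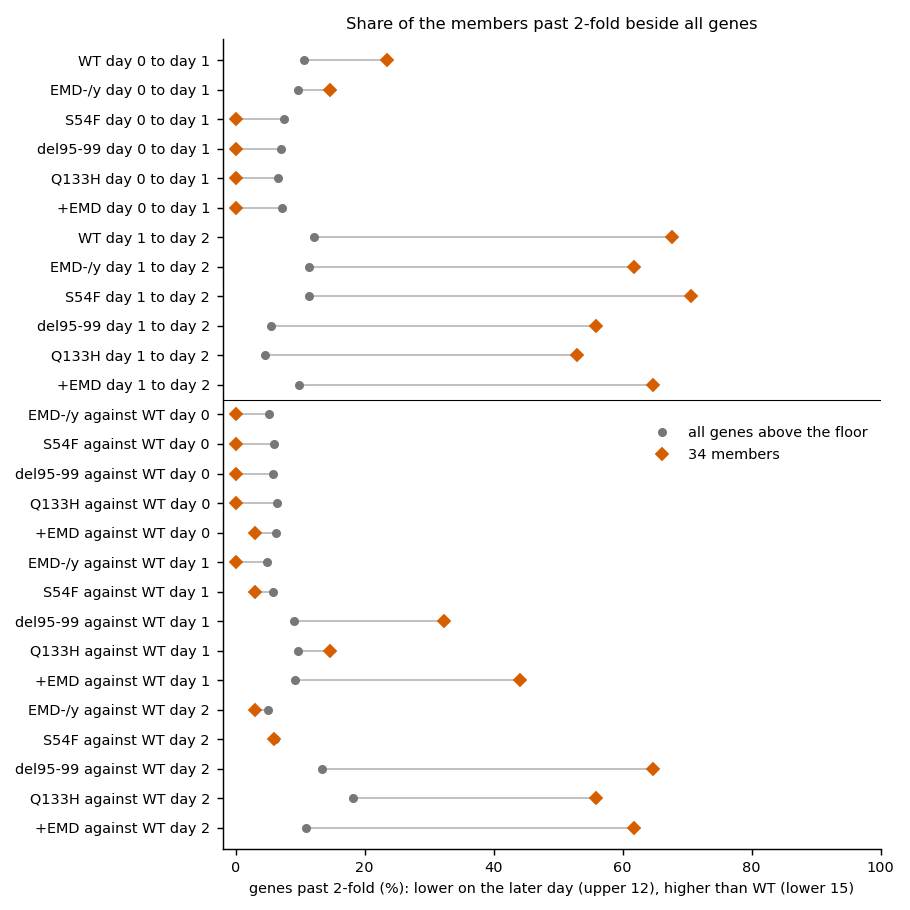
Percentage of the 34 members (orange diamonds) and of all genes above the floor (grey circles) past 2-fold in each of the 27 tables, counted as lower on the later day for the 12 comparisons of days and as higher than WT for the 15 comparisons of lines. The diamonds lie at or near 0 in the comparisons with WT at day 0 and furthest right from day 1 to day 2 and at day 2 in del95-99, Q133H and +EMD.

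In the other lists of the pathway a smaller share of genes was past 2-fold than among the members. Of all genes, 12.2% were past 2-fold lower from day 1 to day 2 in WT. At day 2, 13.4%, 18.2% and 10.9% of all genes were past 2-fold higher than WT in del95-99, Q133H and +EMD. Of 41 other recombination and Fanconi genes, 15 were past 2-fold lower from day 1 to day 2 in WT, with a median log2 ratio of -0.61, the lowest being Parpbp, which restrains recombination, at -3.54. At day 2, 13, 10 and 14 of them were past 2-fold higher than WT in del95-99, Q133H and +EMD. Rmi2, a partner of Blm, was the highest of them in Q133H (2.89) and +EMD (4.16). Of 10 checkpoint clamp and fork protection genes, 4 were past 2-fold lower from day 1 to day 2 in WT, led by Wee1, the kinase that holds back mitosis, at -2.13. At day 2, 4, 5 and 3 of the 10 were past 2-fold higher than WT in these 3 lines. Of 9 genes of non-homologous end joining, which needs no sister chromatid, 1 was past 2-fold lower in WT from day 1 to day 2, with a median of -0.24. At day 2, 1, 1 and 0 were past 2-fold higher in these lines, with medians of 0.04, 0.06 and 0.20. None of these end joining counts exceeded the share of all genes. The 1 past 2-fold in both del95-99 and Q133H was Polm, a polymerase that fills gaps, at 1.05 and 1.74.

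Proliferation markers moved with the members, and their part in the members' values was not tested. The summed level of 15 such markers was 4619 CPM in WT at day 0, 2459 at day 1 and 416 at day 2. At day 2 it was 503 in EMD-/y, 487 in S54F, 2089.9 in del95-99, 1432 in Q133H and 2019.6 in +EMD. Their median log2 ratio from day 1 to day 2 was -2.55 in WT, -2.02 in EMD-/y, -2.97 in S54F, -1.32 in del95-99, -1.64 in Q133H and -1.44 in +EMD. Against WT at day 2, all 15 were past 2-fold higher in del95-99, 13 in Q133H and 14 in +EMD, with medians of 2.54, 1.90 and 2.63. Mki67, a marker of cycling cells, was at 4.94, 3.46 and 5.11, Top2a, the mitotic topoisomerase, at 3.66, 2.75 and 3.75, and Pcna, the replication clamp, at 2.34, 1.12 and 2.54. In EMD-/y and S54F, 5 of the 15 markers were past 2-fold higher than WT at day 2. Fewer cycling cells and less RNA per cell cannot be told apart in these bulk samples.

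Over the 18 groups, the log2 level of 27 of the 34 members had a Pearson's r above 0.9 with the log2 of this summed level, Exo1 having the highest at 0.996. The 7 other members were Chek2 (0.77), Xrcc3 (0.70), Atr (0.63), Rad51b (0.42), Rad51d (0.07), Mus81 (-0.41) and Rad52 (-0.48). Spearman's rho was 0.97 for Exo1, 0.47 for Chek2 and Atr each, and -0.38 for Rad52. The groups of a line share its cells and the members share libraries with the markers, so these values are descriptions. How many of all genes reach such an r was not computed, so the count is not read as particular to the members. At day 1 Chek2 was above its day 0 level in all 6 lines. In CPM, members above their day 0 level at day 1, Chek2 included, numbered 7 in WT, 5 in EMD-/y and 10 in S54F. They numbered 22 in del95-99, 22 in Q133H and 24 in +EMD on that scale, and the share of all genes was not counted. The +EMD count depends on the scale, since the members' median log2 ratio within its table was 0.02 for this step. Topbp1, for example, was at -0.04 by that ratio and at 102% in CPM.

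**Figure D5:**
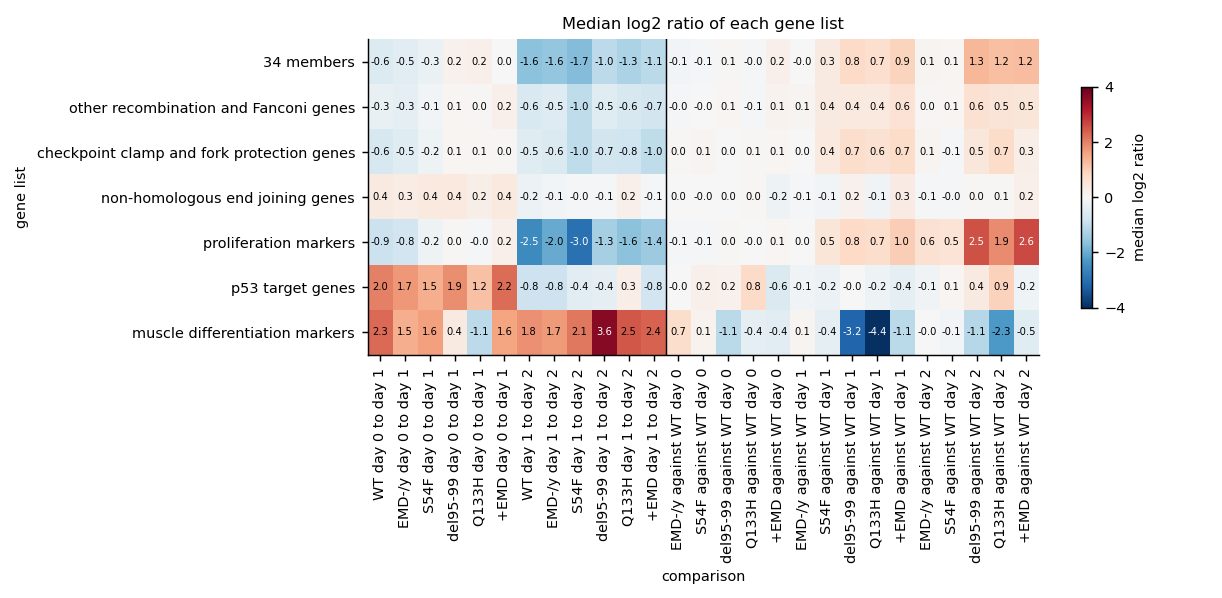
Median log2 ratio of the authors' group means for the 34 members and 6 other gene lists (rows) in the 27 tables (columns; comparisons of days left of the line, comparisons with WT right of it). The members' row has the sign of the proliferation row at each comparison of day 1 with day 2 and at day 2 against WT, with smaller medians, and the end joining row stays between -0.24 and 0.41.

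Genes of the damage response and of muscle gave different patterns. Of 12 p53 target genes, 12 were past 2-fold higher at day 1 than at day 0 in WT (12.7% of all genes), 12 in EMD-/y (12.2%), 10 in S54F (9.62%), 10 in del95-99 (7.53%), 8 in Q133H (5.95%) and 10 in +EMD (10.7%). Cdkn1a, the inhibitor of cyclin-dependent kinases that p53 induces, had log2 ratios from 1.05 in Q133H to 2.54 in +EMD for that step. The highest of the 12 in WT was Trp53inp1 at 3.96 and the lowest Bax at 1.19. Against WT at day 1, none of the 12 was past 2-fold higher in any line, and 2 were past 2-fold lower in del95-99 (12.3% of all genes) and in Q133H (14.9%), as was 1 in S54F (6.69%) and in +EMD (10.9%). At day 1 the muscle markers had a median of -3.16 against WT in del95-99, -4.44 in Q133H and -1.08 in +EMD, with Myog, the regulator of terminal differentiation, at -1.89, -3.73 and -0.42. The embryonic myosin gene Myh3 was at -4.15, -5.17 and -2.46. At day 2 the muscle medians were -1.15, -2.30 and -0.47. At day 2 the members' medians in del95-99, Q133H and +EMD were close to each other. The muscle median of +EMD, in contrast, was the closest of the 3 to WT, and that of Q133H was the lowest. EMD-/y and S54F had muscle medians of -0.01 and -0.12 at day 2.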

How the data were processed

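Poly(A) RNA was sequenced as 100-base read pairs on the DNBseq platform. The provider filtered reads with SOAPnuke, mapped them with HISAT2 to mm10 and compared pairs of groups with DESeq2, per the authors' methods and the labels. Tool versions are not given in the sources used here. The deposited signal values are the authors' means per group of counts normalized within each table. The deposited fold changes, p-values and q-values are the authors' own comparisons and were not used. No column (0) holds single samples, so no test, SD or self-made split was possible. The library kit is not stated to keep strand.

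Symbols were matched to NCBI gene numbers through RefSeq (149 of 150 listed symbols, the unmatched one being Claspn). Ratios were taken within a table, with a floor of 10 on the larger mean. Counting intervals used 3 times each mean, rounded, took size factors as near 1 and were tested on simulated data. Levels in CPM (scaled to a sum of 1000000) are averages over the tables that hold a group, which were normalized separately, and hold only approximately. Exonic overlaps came from GENCODE M21. The members and lists were chosen with earlier results of these data known. By rule, every member was accounted for, and the others named were Emd, Mki67, Top2a, Pcna, Cdkn1a, Myog, Myh3 and the extremes of each list, except for 1 gene whose values are not reported here. Day 3, vector-only, M179 and proliferating cells were not analysed here. Scripts ran under Python 3.11.15 with scipy 1.17.1, pandas 2.3.3, numpy 2.4.6 and matplotlib 3.10.9.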

Additional observations from a re-analysis of the deposited data

How the results depend on the processing

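Of 162 recomputed counts of members past 2-fold, those without the floor, with a pseudocount of 1 and with a counting interval that leaves out 1 stayed within 1.5 times the count given. With means as CPM, the count against WT at day 1 was 2 in S54F and 13 in Q133H, and centring on the median of all genes gave 2 in S54F. That scaling moved the median of all genes by more than 0.1 (log2) in 9 of 27 tables, by -0.27 to 0.25. With a threshold of 1.5-fold in place of 2-fold, the counts of members lower from day 0 to day 1 were 16 in WT, 14 in EMD-/y, 5 in S54F, and 2 each in del95-99, Q133H and +EMD, against 14.1% to 21.2% of all genes. The counts of members higher than WT were then 1 in del95-99 and 3 in +EMD at day 0, 1 in EMD-/y, 6 in S54F, 21 in del95-99, 18 in Q133H and 23 in +EMD at day 1, and 4 in EMD-/y and 8 in S54F at day 2, against 9.38% to 18.9% of all genes. No median and no member past 2-fold changed sign under the 3 scalings applied to them. Of 807 such values, 83 moved beyond their counting interval, all with means as CPM. The cause was not tested. No paired analysis was possible because the tables hold group means only, and no replicate could be left out for the same reason. Differences between lines rest on 1 line each. Depth limits mainly the day 2 values of WT, EMD-/y and S54F, where the lowest member means were 13.1, 15.8 and 18.4 normalized counts.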
